A study of Mus musculus with 6 samples.

Results

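The 35 genes described here make, regulate or export cholesterol and fatty acids. They were found by gene symbol in a table of 55536 genes, and all 35 matched 1 row each. By role they were 7 mevalonate steps, 11 sterol steps, 6 genes of SREBP control and sterol transport, 8 genes of fatty acid synthesis, and 3 genes of sterol efflux and its receptor LXR. HDAC1 is a histone deacetylase, and the 2D2 T cell receptor recognises a peptide of the myelin protein MOG. RNA was sequenced from sorted CD4+ T cells on day 4 after immunisation, 3 HDAC1-cKO libraries and 3 WT libraries. HDAC1-cKO cells carried the 2D2 T cell receptor transgene, Hdac1 alleles flanked by loxP sites (Hdac1fl/fl) and the Cd4-Cre transgene. WT cells carried the same 2D2 transgene and floxed alleles without Cre, so presence of Cre and loss of HDAC1 cannot be told apart. Both strains were C57BL/6. Naive donor cells marked by CD45.2 were injected into CD45.1+ recipients, which were given MOG peptide in complete Freund's adjuvant 18 hours later. Each library was made from 500 donor cells of the draining popliteal nodes of 2 pooled mice. The Cd4 promoter drives Cre in the thymus, before CD4+ cells mature, and the recipients kept their own immune cells. Differences present before transfer and differences that arose after it cannot be told apart here.

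Cells build cholesterol from acetyl-CoA, first by the mevalonate pathway to farnesyl diphosphate, then by squalene and a chain of sterol intermediates. When sterols in the endoplasmic reticulum run low, SCAP escorts the SREBP transcription factors to the Golgi, where proteases release their active part. INSIG proteins hold the SCAP and SREBP complex back when sterols are plentiful. SREBP2 acts mainly on sterol genes and SREBP1 mainly on fatty acid genes, while LXR switches on export through ABCA1 and ABCG1. T cells that begin to divide are known to raise SREBP activity, because new membrane needs sterols and fatty acids.

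No gene of the set passed the test between the genotypes. The lowest adjusted p values belonged to Idi1, at 60.1% of the WT level, Sqle at 73.7%, Acat2 at 139%, Sc5d at 72.3% and Cyp51 at 71.2% (fitted values, n = 3 each). The count of genes whose libraries were separate in the lower direction, 5 of 35, was near the 11.8% of all tested genes, and that in either direction was below the background share. With edgeR's quasi-likelihood test and Benjamini-Hochberg adjustment over 15519 genes, 0 of 35 had an adjusted p under 0.05, a mark that 1.97% of all tested genes passed, 0.979% higher and 0.992% lower. An unadjusted p under 0.05 was found for 8 of 35, against 17.0% of all tested genes. Of these, Acat2 was higher in HDAC1-cKO and Idi1, Sqle, Cyp51, Sc5d, Insig1, Stard4 and Fads2 were lower, where 8.62% of all genes were higher and 8.39% lower. All libraries of one genotype lay beyond all of the other in 6 of 35, 1 higher and 5 lower, against 24.6% of all tested genes, 12.7% higher and 11.8% lower. The log2 difference was negative in 22 of 35, against 50.3% of all genes.

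Other settings made a few calls. DESeq2 called Acat2 higher and Idi1, Sqle, Cyp51 and Sc5d lower, where it called 4.88% of all genes higher and 4.65% lower. Limma-voom with sample weights called Acat2 higher and Idi1, Sqle and Sc5d lower, with 4.96% of all genes higher and 5.28% lower. Idi1 alone was called, lower, in 3 further settings. These were edgeR on genes with at least 10 CPM (counts scaled to a fixed library total) in 3 libraries (2.46% of all genes higher, 2.69% lower), edgeR with offsets for GC content and length (1.39% higher, 1.71% lower) and an edgeR adjusted p under 0.1 (2.61% higher, 2.66% lower). The 5 genes kept the sign of their difference in all 19 other fits, and are given in full below.

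An SREBP element and a nearby NF-Y box are the textbook switch of sterol genes, so promoter sequences are shown. They are those of Acat2, Idi1, Cyp51 and Sc5d, and of Hmgcs1, the 1 gene of 27 with the letters TCACNCCAC. Those letters are a form of the SREBP element, and forms with other letters were not searched for. The sequences come from RefSeq on GRCm38.p6. It had windows of 300 bases, 250 before and 50 after a start site, for 27 of the 35 genes. Each line below gives the bases just before the RefSeq start, 5′ to 3′ on the gene's strand, with the NF-Y box CCAAT (or ATTGG, on the other strand) and the SREBP element TCACNCCAC in capitals. GENCODE places the starts of Acat2, Idi1 and Cyp51 within these stretches. Sqle is named only, as it had no window.
Acat2, chr17:12960726-12960845, minus strand: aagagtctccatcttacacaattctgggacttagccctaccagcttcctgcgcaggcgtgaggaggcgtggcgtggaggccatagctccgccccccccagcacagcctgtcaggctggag
Idi1, chr13:8885486-8885605, plus strand: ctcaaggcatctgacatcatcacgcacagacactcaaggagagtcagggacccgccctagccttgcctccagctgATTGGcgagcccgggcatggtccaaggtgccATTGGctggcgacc
Cyp51, chr5:4104698-4104817, minus strand: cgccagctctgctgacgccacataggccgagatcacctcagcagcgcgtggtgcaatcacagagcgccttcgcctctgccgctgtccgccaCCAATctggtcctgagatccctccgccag
Sc5d, chr9:42264301-42264420, minus strand: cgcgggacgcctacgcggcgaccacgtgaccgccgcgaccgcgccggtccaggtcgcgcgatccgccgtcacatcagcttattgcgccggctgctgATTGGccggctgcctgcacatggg
Hmgcs1, chr13:119690201-119690350, plus strand: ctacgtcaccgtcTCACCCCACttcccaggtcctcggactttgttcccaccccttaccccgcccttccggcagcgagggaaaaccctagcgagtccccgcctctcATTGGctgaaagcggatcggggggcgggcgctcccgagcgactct

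Hmgcs1 was the 1 gene of 27 with the letters TCACNCCAC on either strand, which 1.242% of all 32851 windows held. The letters CCAAT were found in 20 of 27 genes, or 21 of their 35 windows, against 37.408% of all windows. Idi1, Cyp51 and Sc5d had the box and Acat2 did not. The LXR element, 2 direct copies of AGGTCA spaced by 4 bases, was in 0 of the 27 genes and in 0.015% of all windows. These are matches of letters and say nothing of binding, and SREBP elements spelled otherwise would be missed.

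The mevalonate steps held the gene with the lowest adjusted p of the set and the 1 gene whose libraries were separate in the higher direction. Idi1, which isomerises isopentenyl diphosphate (chromosome 13, 8885501 to 8892451, GRCm38), stood at 26.9, 18.6 and 25.8 CPM in HDAC1-cKO against 44.1, 38.7 and 35.7 CPM in WT. All 3 HDAC1-cKO values lay below the lowest WT value. The means were 23.8 ± 4.47 CPM in HDAC1-cKO against 39.5 ± 4.25 CPM in WT (SD, n = 3 each), so the HDAC1-cKO level was 60.1% of the WT level. On the log2 scale that was -0.73 ± 0.18 (SE, edgeR adjusted p = 0.0806). The interval of the difference ran from -1.14 to -0.32 at 95% confidence.

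Acat2 (chromosome 17, 12942890 to 12960747), the thiolase that joins 2 acetyl-CoA at the entry of the pathway, went the other way. It stood at 119, 97.6 and 109.5 CPM in HDAC1-cKO against 85.3, 81.9 and 67.0 CPM in WT. The lowest HDAC1-cKO value lay above the highest WT value. The means were 109 ± 10.7 CPM in HDAC1-cKO against 78.1 ± 9.73 CPM in WT (SD, n = 3 each), and the log2 difference was 0.48 ± 0.14 (SE, edgeR adjusted p = 0.121).

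The kinases between them had overlapping groups. Pmvk, phosphomevalonate kinase, had 46.2, 66.6 and 44.2 CPM in HDAC1-cKO against 40.4, 44.5 and 37.5 CPM in WT (log2 difference 0.36 ± 0.18, SE, edgeR adjusted p = 0.372). Mvk, mevalonate kinase, had 12.5, 18.1 and 13.6 CPM in HDAC1-cKO against 11.2, 13.1 and 12.4 CPM in WT (log2 difference 0.27 ± 0.20, SE, edgeR adjusted p = 0.551). Replicate 2 was the highest HDAC1-cKO library in both, and without it the log2 differences were 0.0834 for Mvk and 0.138 for Pmvk. The other mevalonate genes were the synthase Hmgcs1, the decarboxylase Mvd and the farnesyl diphosphate synthase Fdps, with log2 differences of -0.12, 0.06 and -0.24. That of Mvd was -0.246 without HDAC1-cKO replicate 2. Over the 7 steps the median log2 difference was 0.06, with 4 positive and 3 negative values, beside a median of 0.00 over all genes tested.

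Reads of several of these genes can be shared with copies, and how they were assigned is not stated. Of the 50-base stretches of Acat2 transcripts, 39.1% occur in other genes, led by its neighbour Acat3. Acat3 averaged 20.9 ± 0.887 CPM in HDAC1-cKO against 14.6 ± 1.79 CPM in WT (SD, n = 3). For Idi1 the share was 25.29%, led by the pseudogene Gm13502, which averaged 7.78 ± 1.61 CPM in HDAC1-cKO against 12.4 ± 1.38 CPM in WT. Both partners had mean differences of the same sign as the gene they resemble. Fdps shared 26.19% of its stretches, and its copy Gm3571 had more counts than Fdps itself, 10.1 CPM in HDAC1-cKO against 11.2 CPM in WT. Fdps averaged 8.48 CPM in HDAC1-cKO against 10.04 CPM in WT.

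**Figure D1:**
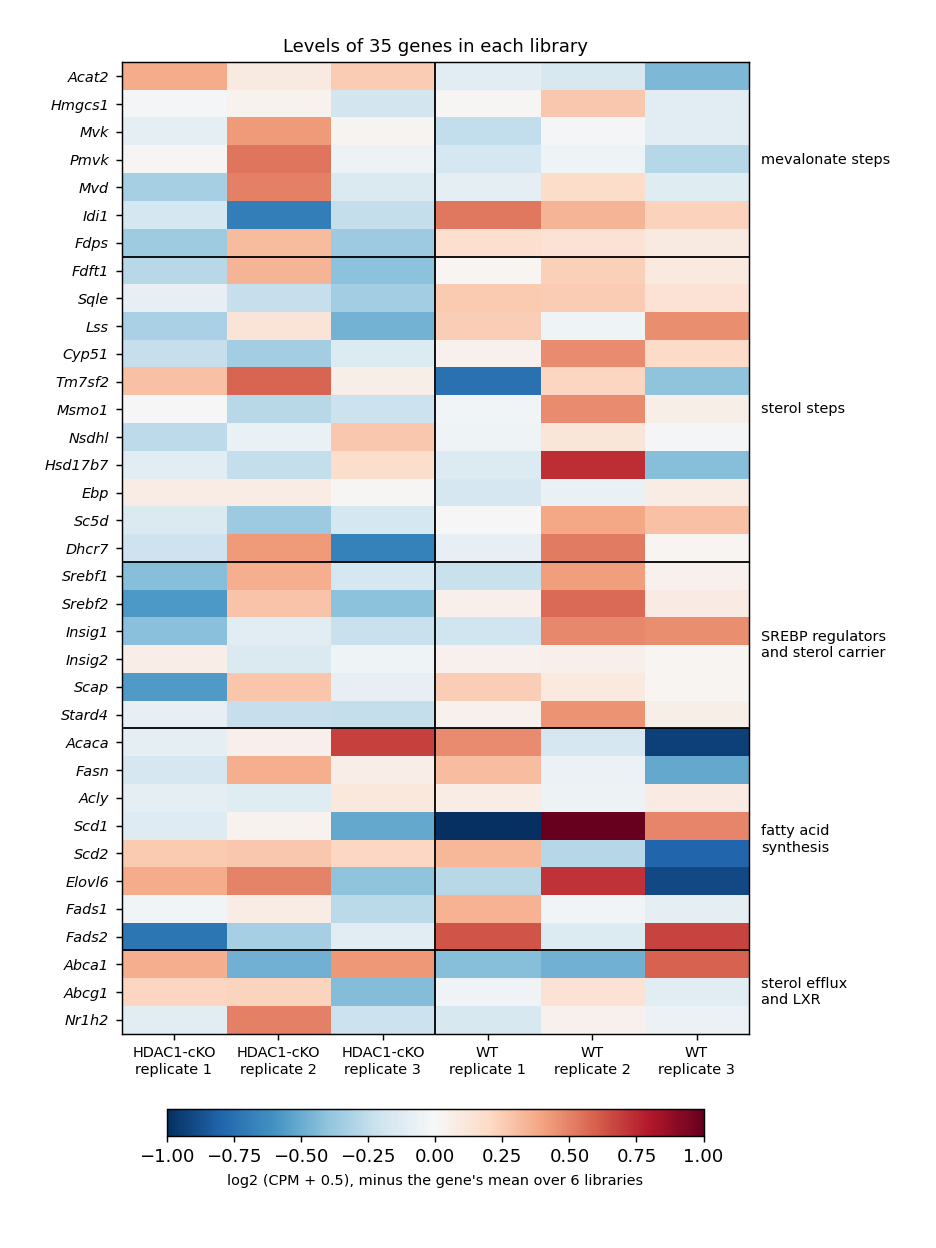
Each row is 1 of the 35 genes and each column 1 library, HDAC1-cKO on the left and WT on the right; colour gives log2(CPM + 0.5) minus the gene's mean over the 6 libraries, and values beyond 1 or -1 take the end colours. The HDAC1-cKO columns are mostly blue for Idi1, Sqle, Cyp51 and Sc5d and red for Acat2, while HDAC1-cKO replicate 2 is red for Mvk, Pmvk and Mvd.

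The sterol steps had 9 of 11 negative differences and a median log2 difference of -0.26, although 0 of 11 passed the test. Their summed level was 558, 579 and 536 CPM in HDAC1-cKO against 582, 703 and 642 CPM in WT. The sums did not overlap, but HDAC1-cKO replicate 2 and WT replicate 1 were close, at 579 and 582 CPM. How often sums of other genes separate was not counted. Leaving out HDAC1-cKO replicate 2 gave a median of -0.409, and leaving out WT replicate 2 gave -0.153.

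Squalene epoxidase, Sqle (chromosome 15, 59315077 to 59331192), adds oxygen to squalene and is a slow step of the pathway. It stood at 53.9, 48.4 and 44.7 CPM in HDAC1-cKO against 68.3, 68.1 and 63.0 CPM in WT, with no overlap. Means of 48.97 ± 4.61 CPM in HDAC1-cKO against 66.4 ± 2.96 CPM in WT (SD, n = 3 each) gave a log2 difference equal to -0.44 ± 0.12 (SE, with an edgeR adjusted p of 0.112) and an interval from -0.72 to -0.16.

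Cyp51 (chromosome 5, 4081145 to 4104746), which removes a methyl group from lanosterol, had 43.5, 40.1 and 46.4 CPM in HDAC1-cKO against 52.7, 71.3 and 58.5 CPM in WT. Sc5d (chromosome 9, 42251595 to 42264256), the sterol C5 desaturase near the end of the chain, had 73.8, 63.3 and 72.3 CPM in HDAC1-cKO against 82.1, 107 and 100.1 CPM in WT. Neither gene's groups overlapped, and in both the WT libraries were the more spread out. The log2 differences were -0.49 ± 0.15 for Cyp51 and -0.47 ± 0.14 for Sc5d (SE, edgeR adjusted p = 0.137 and 0.128).

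Msmo1, which oxidises the next methyl groups, had 67.7, 55.9 and 58.3 CPM in HDAC1-cKO against 66.5, 94.3 and 70.6 CPM in WT (log2 difference -0.35 ± 0.16, SE, edgeR adjusted p = 0.330). Its groups overlapped by 1 HDAC1-cKO library. Lss, which closes the rings to lanosterol, Fdft1, the squalene synthase, Dhcr7, the last reductase, and Hsd17b7 and Nsdhl, which work with Msmo1 on the methyl groups, had log2 differences of -0.44, -0.20, -0.26, -0.21 and -0.02. Tm7sf2, a sterol reductase, and Ebp, a sterol isomerase, had positive ones, 0.61 and 0.10. Of Fdft1's exon bases 18.31% lie under the cathepsin gene Ctsb on the other strand, which averaged 822 CPM in HDAC1-cKO against 663 CPM in WT. These libraries do not mark strand, so Fdft1 counts can include Ctsb reads.

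**Figure D2:**
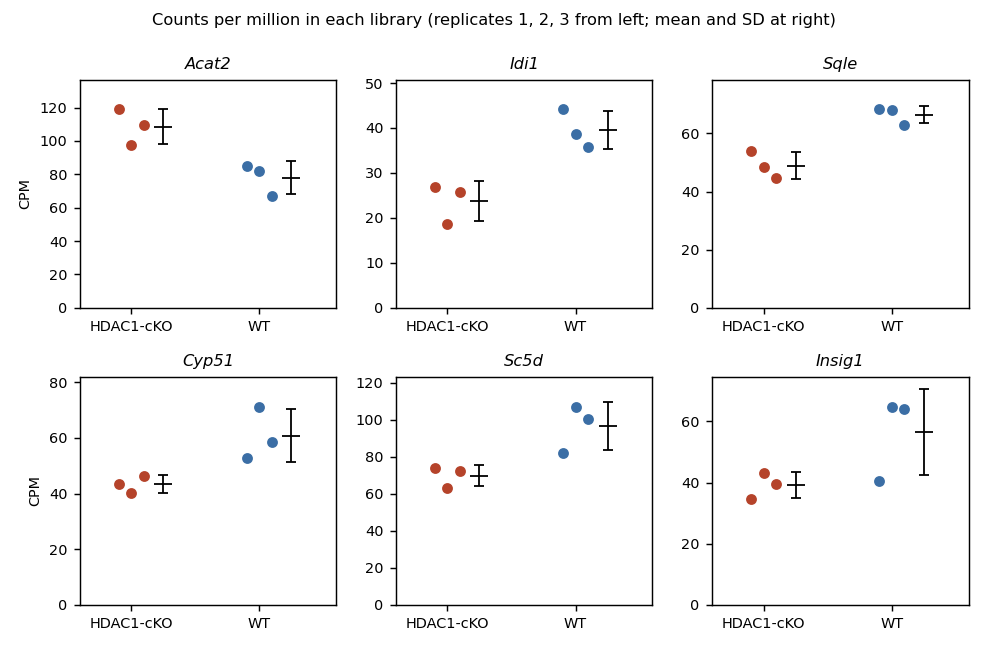
CPM of 6 genes in each library, with HDAC1-cKO left of WT; points are replicates 1, 2 and 3 from left to right, and the black bar is the mean with its SD (n = 3). The groups are separate for Acat2, Idi1, Sqle, Cyp51 and Sc5d and overlap for Insig1, where WT replicate 1 at 40.3 CPM lies among the HDAC1-cKO values.

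All 6 genes that sense sterols, control SREBP or carry sterol had negative differences, again with 0 of 6 past the test. Their median log2 difference was -0.30, and leaving out each library in turn gave -0.435 to -0.207. The sign of Srebf1 was not stable: it turned to 0.014 when HDAC1-cKO replicate 1 was left out and to 0.0317 when WT replicate 2 was. Scap was at -0.0158 without HDAC1-cKO replicate 1. Insig1 (chromosome 5, 28071363 to 28078662), itself an SREBP target, had 34.7, 43.0 and 39.6 CPM in HDAC1-cKO against 40.3, 64.8 and 64.2 CPM in WT. In WT, 2 libraries stood above all others and replicate 1 did not. The log2 difference was -0.53 ± 0.20 (SE, edgeR adjusted p = 0.229), with an interval from -0.99 to -0.07.

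Stard4, which shuttles cholesterol between membranes and is induced by SREBP2, had 42.1, 37.9 and 37.6 CPM in HDAC1-cKO against 45.9, 60.8 and 46.5 CPM in WT. The groups did not overlap, by a small gap, and the log2 difference was -0.38 ± 0.15 (SE, edgeR adjusted p = 0.244). The gene of SREBP2, Srebf2, had 15.2, 27.9 and 17.1 CPM in HDAC1-cKO against 23.6, 33.9 and 24.1 CPM in WT (log2 difference -0.44 ± 0.26, SE, edgeR adjusted p = 0.462). HDAC1-cKO replicate 2 stood among the WT values, and without it the difference was -0.765 (edgeR adjusted p = 0.0893). Scap had 8.74, 16.1 and 12.4 CPM in HDAC1-cKO against 15.7, 14.1 and 13.4 CPM in WT (log2 difference -0.21 ± 0.24, SE, edgeR adjusted p = 0.727). Srebf1 and Insig2 had log2 differences of -0.15 and -0.08.

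**Figure D3:**
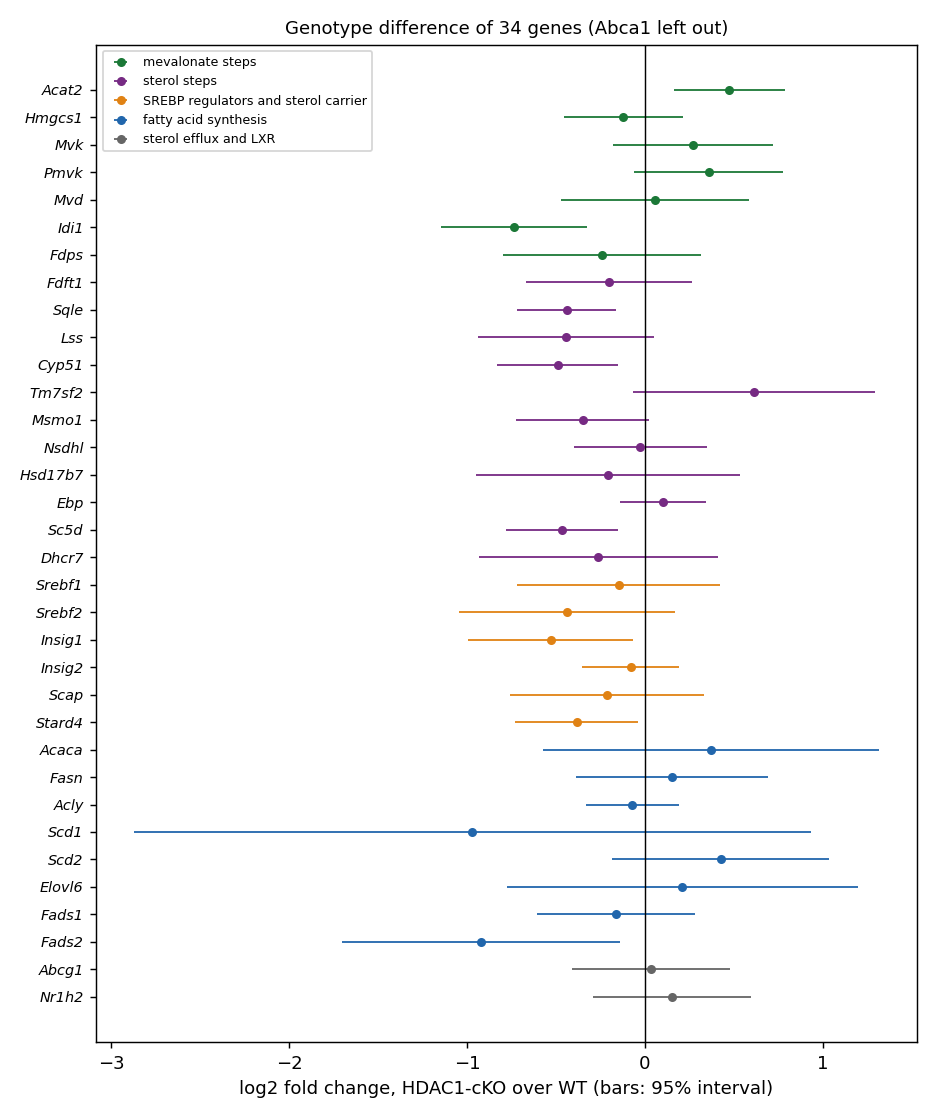
Log2 fold changes of HDAC1-cKO over WT with their 95% intervals, coloured by role; Abca1 is left out because its interval runs from -3.20 to 4.33. Intervals of Acat2, Idi1, Sqle, Cyp51, Sc5d, Insig1, Stard4 and Fads2 leave out 0 before adjustment, and 0 of 35 genes passed after it.

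Fatty acid synthesis showed no common direction, with 4 positive and 4 negative differences, a median log2 difference of 0.04 and 0 of 8 past the test. Acly, which splits citrate to acetyl-CoA in the cytosol, was at 85.8, 84.3 and 98.8 CPM in HDAC1-cKO against 96.4, 88.7 and 97.0 CPM in WT. Its log2 difference was -0.07, with an interval from -0.33 to 0.19. Acaca, the carboxylase that makes malonyl-CoA, had 5.18, 5.81 and 9.26 CPM in HDAC1-cKO against 7.94, 4.91 and 2.69 CPM in WT (log2 difference 0.37 ± 0.41, SE, edgeR adjusted p = 0.723). Of its 50-base stretches 30.43% are shared, led by the pseudogene Gm5182, which averaged 0.515 CPM in HDAC1-cKO against 0.614 CPM in WT.

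Among the desaturases, Scd2 had 30.8, 31.0 and 29.7 CPM in HDAC1-cKO against 32.4, 20.99 and 14.6 CPM in WT (log2 difference 0.43 ± 0.27, SE, edgeR adjusted p = 0.481). The WT libraries were spread over a wide range and the HDAC1-cKO libraries were not. Scd1 was hardly detected, at 0.920, 1.10 and 0.588 CPM in HDAC1-cKO against 0.195, 3.27 and 1.69 CPM in WT, with 10 to 180 counts a library. The interval of its log2 difference, -2.87 to 0.94, was too wide to read a direction. Fads2, the delta-6 desaturase of polyunsaturated fatty acids, had 1.84, 2.57 and 3.09 CPM in HDAC1-cKO against 5.46, 3.02 and 5.66 CPM in WT (log2 difference -0.92 ± 0.34, SE, edgeR adjusted p = 0.216). Its groups overlapped by 1 library on each side. The synthase Fasn, the elongase Elovl6 and the desaturase Fads1 had log2 differences of 0.15, 0.21 and -0.16. Elovl6 ran from 9.56 to 18.3 CPM in HDAC1-cKO and from 6.61 to 21.5 CPM in WT.

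Sterol efflux and LXR did not separate the genotypes, with 0 of 3 genes past the test. Nr1h2, the gene of LXR beta, had 88.0, 135 and 81.9 CPM in HDAC1-cKO against 84.8, 97.8 and 91.2 CPM in WT (log2 difference 0.16 ± 0.19, SE, edgeR adjusted p = 0.761). Abcg1, a sterol exporter, had 54.2, 54.4 and 34.4 CPM in HDAC1-cKO against 45.3, 51.4 and 43.0 CPM in WT (log2 difference 0.04 ± 0.19, SE, edgeR adjusted p = 0.952). Without HDAC1-cKO replicate 2 both differences were negative, -0.111 and -0.0756 (edgeR adjusted p = 0.609 and 0.893). Abca1, the other exporter, held 0 to 21 counts a library, 0.399, 0 and 0.441 CPM in HDAC1-cKO against 0.0195, 0 and 0.553 CPM in WT. These counts are too few to read a fold from.

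HDAC1-cKO replicate 2 stood apart in a way that ran through this set. It was the highest of the 6 libraries for 10 genes, Mvk, Pmvk, Mvd, Fdps, Fdft1, Tm7sf2, Scap, Fasn, Abcg1 and Nr1h2. Transcripts of these 10 had a median GC content of 56.65%, against 48.2% for the other 25. All 8 genes over 55% GC were higher there than in the mean of the other 5 libraries, by 0.33 to 0.64 on the log2 scale, and 2 of 8 under 46% GC were. Over 4954 well-expressed genes, the Pearson r between its deviation from the mean of the libraries and transcript GC content was 0.641, and with log length it was -0.316. In the other 5 libraries r with GC content ran from -0.322 to -0.0684. Each deviation is from the mean of all 6 libraries, so these negative values are not independent of the positive one. Idi1 transcripts had a GC content of 41.9%, and Acat2, Sqle, Cyp51 and Sc5d had 49.6, 48.6, 46.2 and 42.9%. Without this library the log2 differences were -0.593 for Idi1, 0.541 for Acat2, -0.438 for Sqle, -0.444 for Cyp51 and -0.409 for Sc5d. With the offsets for GC content and length, fitted per library, they were -0.634, 0.408, -0.414, -0.439 and -0.321, and Idi1 passed the test (edgeR adjusted p = 0.0356).

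**Figure D4:**
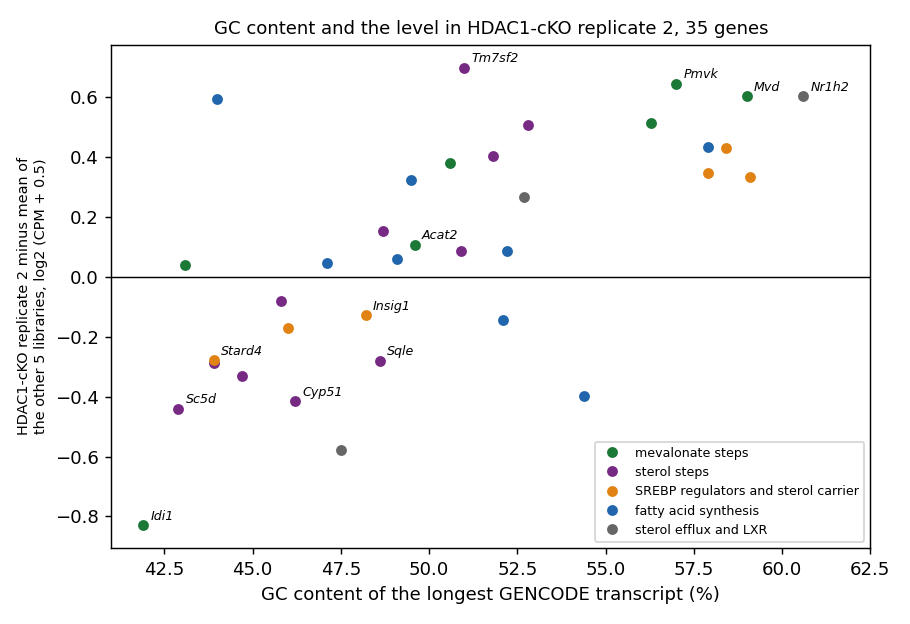
Each point is 1 of the 35 genes, by the GC content of its longest transcript and by the log2(CPM + 0.5) of HDAC1-cKO replicate 2 minus the mean of the other 5 libraries. Genes over 55% GC all lie above 0, and Idi1, at 41.9% GC, is lowest at -0.83.

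Levels compared between genes need a length correction, for which the authors' FPKM values were used. Ebp was the most abundant, at 97.6 ± 2.25 FPKM in HDAC1-cKO and 91.2 ± 8.09 FPKM in WT (SD, n = 3 each), followed by Nr1h2 and Acat2. The other sterol steps were spread widely over all libraries, with Msmo1 at 33.3 FPKM, Sqle at 20.7, Nsdhl at 18.3, Sc5d at 16.9, Fdft1 at 15.9, Cyp51 at 13.1, Dhcr7 at 9.07, Lss at 4.37 and Hsd17b7 at 2.17 FPKM, and Tm7sf2 between Dhcr7 and Lss. The genes of SREBP1 and SREBP2 were close, at 6.27 FPKM for Srebf1 and 4.59 FPKM for Srebf2. Fatty acid genes were mostly scarce, with 19.7 FPKM for Acly, 4.81 for Scd2, 2.95 for Fasn, 0.619 for Acaca and 0.265 for Scd1. Abca1 was at 0.0227 FPKM, while Abcg1 was at 6.81 FPKM. In FPKM, Scd2 exceeded Scd1 and Abcg1 exceeded Abca1 in every library of both genotypes.

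**Figure D5:**
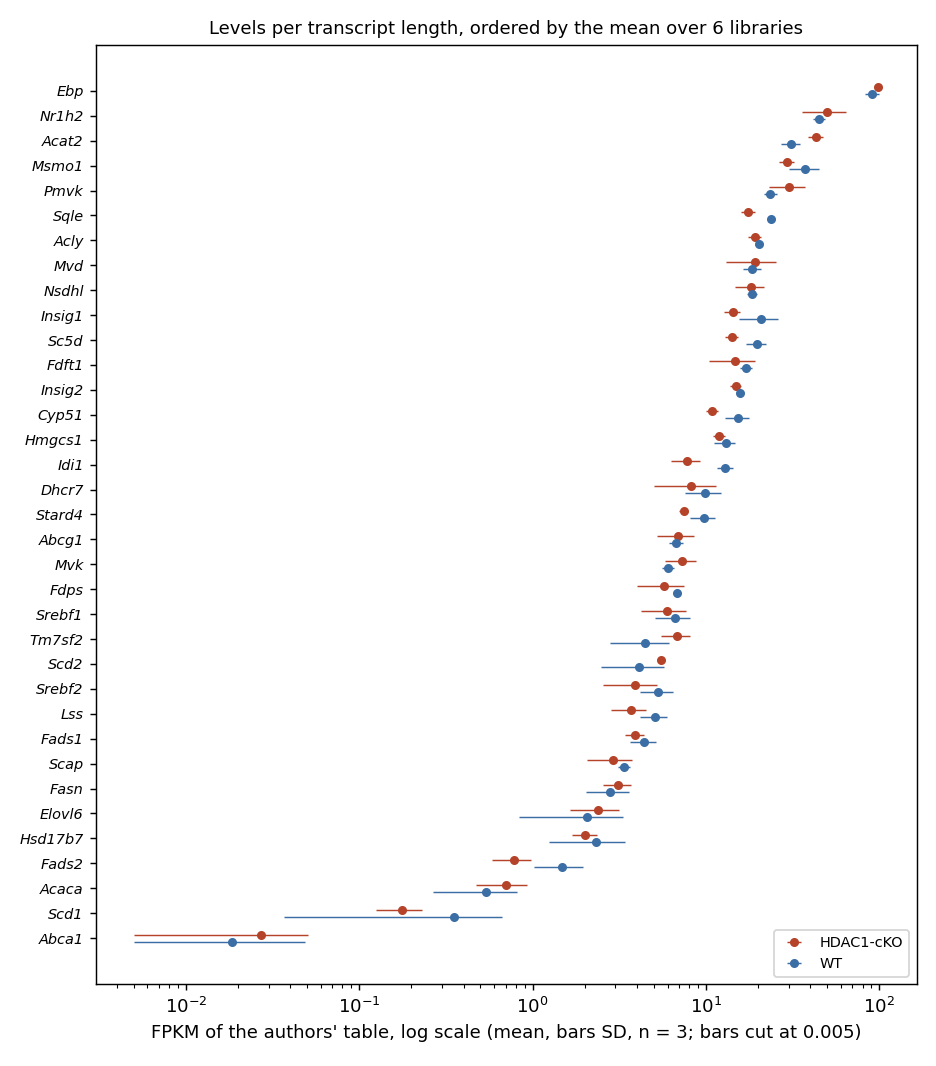
FPKM of the 35 genes on a log axis, ordered by the mean over 6 libraries, with HDAC1-cKO drawn above WT for each gene; points are means and bars SD (n = 3). Ebp is at the top, Abca1 at the bottom, and most genes lie in between.

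Further genes of the pathway, taken from 4 lists, were tested in the same fit: of 57 listed, 50 were tested. None passed, against 1.97% of all genes, 12 had an unadjusted p under 0.05, against 17.0% of all genes, and the median log2 difference was 0.03 with 26 positive values. Slc25a1, the carrier that exports citrate from mitochondria for Acly, came closest. It had 58.1, 77.2 and 62.6 CPM in HDAC1-cKO against 43.7, 37.4 and 35.7 CPM in WT, with no overlap (log2 difference 0.76 ± 0.15, SE, edgeR adjusted p = 0.0506). In the same list of 15 tested genes of fatty acid supply and elongation, where 7 differences were positive and 8 negative, the elongase Elovl5 differed by -0.47 ± 0.14 (SE, edgeR adjusted p = 0.135). Among 11 tested genes of isoprenoid and sterol side branches, 6 positive and 5 negative, Fnta, a subunit of protein farnesyltransferase, had 172, 136 and 152 CPM in HDAC1-cKO against 97.7, 108 and 112 CPM in WT (log2 difference 0.54 ± 0.12, SE, edgeR adjusted p = 0.0699). Its partner Fntb differed by 0.51 ± 0.27 (SE, edgeR adjusted p = 0.392). Of 10 genes of SREBP processing and turnover, 3 positive and 7 negative, the ubiquitin ligase gene Rnf145 differed by -0.42 and the site-2 protease gene Mbtps2 by -0.76 (edgeR adjusted p = 0.216 and 0.241). The 14 tested genes of sterol uptake, storage and LXR partners had 10 positive and 4 negative differences and a median log2 difference of 0.21. The 5 with an unadjusted p under 0.05 went both ways. Osbpl8 differed by -0.60 and the lysosomal Npc2 by -0.44 (edgeR adjusted p = 0.200 and 0.211). The cholesterol transporter Npc1 differed by 0.62, the lipoprotein receptor Scarb1 by 0.56 and the phospholipid acyltransferase Lpcat3 by 0.30 (edgeR adjusted p = 0.268, 0.242 and 0.242), 3 genes named after their values were seen.

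The labels and the cells behind these values were checked in the same libraries. Hdac1 averaged 15.8 ± 1.32 CPM in the 3 HDAC1-cKO libraries, against 238 ± 5.06 CPM in the 3 WT libraries (SD), and was called lower by edgeR (adjusted p = 9.59e-06). Total counts ran from 19956153 to 36307610 in HDAC1-cKO and from 39036751 to 55900237 in WT. The 8 T cell markers were all present, with sums of 5216 to 6114 CPM in HDAC1-cKO against 6073 to 7267 CPM in WT. Of these, 2, Cd3e and Cd2, were called lower (edgeR adjusted p = 0.0102 and 0.0310), against 0.992% of all genes. Differences were negative in 6 of the 8 and positive in 2. Libraries were separate in the lower direction for 5 of them, against 11.8% of all tested genes. Sums of 6 B cell markers were 32.6 to 66.5 CPM in HDAC1-cKO against 16.3 to 42.2 CPM in WT. Sums of 2 CD8 markers were 65.7 to 72.3 CPM in HDAC1-cKO against 45.4 to 59.4 CPM in WT, almost all from Cd8b1. Cd8a was scarce and its groups overlapped, at 2.55, 0.936 and 1.03 CPM in HDAC1-cKO against 1.03, 0.0182 and 2.37 CPM in WT. The 13 myeloid markers summed to 196 to 235 CPM in HDAC1-cKO against 157 to 215 CPM in WT, mostly from Cst3, with Csf1r, Cd14 and Clec9a at 0 in every library. Lyz2, a macrophage and granulocyte gene, had 0.981, 3.75 and 2.70 CPM in HDAC1-cKO against 2.03, 22.6 and 10.4 CPM in WT, and the complement gene C1qb had 0, 0.294 and 0.294 CPM in HDAC1-cKO against 0.117, 1.65 and 0.790 CPM in WT (edgeR adjusted p = 0.206 and 0.425). Both were highest in WT replicate 2. So were Hmgcs1, Cyp51, Msmo1, Hsd17b7, Sc5d, Dhcr7, Srebf1, Srebf2, Insig1, Stard4, Scd1 and Elovl6. Idi1, Sqle, Scd2 and Fads1 were highest in WT replicate 1, and Lss, Fads2 and Abca1 in WT replicate 3. The share of all genes highest in WT replicate 2 was not counted. Other myeloid markers went another way. Cd68 had 2.48, 6.21 and 5.24 CPM in HDAC1-cKO against 2.01, 2.20 and 2.11 CPM in WT (edgeR adjusted p = 0.153). Cd68 and Cst3 were highest in HDAC1-cKO replicate 2. Of the 6 myeloid markers tested, 2 had positive and 4 negative differences. Of 7 adipocyte markers Adipoq, Plin1, Cidec and Lep were at 0 in every library, and the sums, 68.1 to 94.8 CPM in HDAC1-cKO against 56.5 to 65.6 CPM in WT, came from Fabp4. Sums of 9 stromal and endothelial markers were 58.3 to 82.0 CPM in HDAC1-cKO against 64.9 to 99.9 CPM in WT. Almost all came from Pecam1, which averaged 67.3 CPM in HDAC1-cKO against 84.9 CPM in WT. Pdpn, Ccl21a, Col1a2 and Lyve1 were at 0 in every library. Proliferation genes, which go with demand for sterols, had 0 of 12 called, against 1.97% of all genes. Their sums were 7511, 5438 and 7057 CPM in HDAC1-cKO against 6961, 6682 and 6761 CPM in WT. HDAC1-cKO replicate 2 lay below every WT library, and HDAC1-cKO replicates 1 and 3 lay above every WT library. The part of other cell types in the values above was not tested, and fewer cells of a type and less RNA per cell cannot be told apart in such sorted pools.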

How the data were processed

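The authors deposited raw read counts per gene, and FPKM values for the same genes, in 2 tables with 1 column per library; 0 columns were left without a sample. Per the labels' protocols, cDNA was made by Smart-seq2 from polyadenylated RNA, with Nextera XT libraries and single reads of 50 bases. Per the submitters' processing notes, the tools named were STAR 2.5.2b, Picard 2.19.2, R 3.6.1 and DESeq2 1.24.0, with GRCm38/mm10 among the builds; no read counter or strand setting is named there. Within a gene, the deposited FPKM equalled the counts divided by DESeq2 size factors times 1 constant, over 10896 genes.

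Genes were filtered with filterByExpr (15519 kept), scaled by TMM and tested with edgeR 4.0.16 in R 4.3.3 (glmQLFit, robust), with genotype as the term, two-sided. CPM uses TMM-scaled totals. Standard errors and intervals come from the fold change and its p. Low-count genes have wide intervals, and depth differed between groups. Alternatives used DESeq2 1.42.0 and limma 3.58.1. GC content, lengths, shared stretches and overlaps come from GENCODE M21, with which the coordinates of all 35 genes matched. The tests were checked on simulated counts. Every gene of the set is named; full values are given for the 4 with the lowest p in each role, and values for the 2 with the lowest p in each of the 4 wider lists. The genes and lists were chosen with earlier results of these data known. Every pair of libraries of a group differed by more than counting error (chi-square over its degrees of freedom, 12.0 to 109.5). Figures were drawn with matplotlib 3.10.9.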

Additional observations from a re-analysis of the deposited data

How the results depend on the processing

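Most fits without a library called few genes of any kind, and the 2-fold threshold on the main fit could only remove calls. The count of 0 genes higher and 0 lower held under the other scalings, without the filter and without robust estimation. It also held on FPKM with either pseudocount and without any 1 library. It did not hold with DESeq2 (1 higher, 4 lower), limma-voom (1 higher, 3 lower), a filter of at least 10 CPM in 3 libraries (1 lower, Idi1, log2 difference -0.724, adjusted p = 0.0488), the GC and length offsets (1 lower) or an adjusted p under 0.1 (1 lower, Idi1). With limma-voom the medians were -0.167 for mevalonate steps, -0.446 for sterol steps and -0.0825 for sterol efflux. Without 1 library the medians ran from -0.173 to 0.220 for mevalonate steps, -0.409 to -0.153 for sterol steps, -0.435 to -0.207 for SREBP regulators, -0.0776 to 0.0358 for fatty acid synthesis and -0.0756 to 0.222 for sterol efflux. Nr1h2 turned to -0.0825 with limma-voom and ran from -0.111 (without HDAC1-cKO replicate 2) to 0.287 when libraries were left out. Abcg1 turned to -0.147 with limma-voom and ran from -0.0756 to 0.222, at or below -0.0238 without either of HDAC1-cKO replicates 1 and 2 or without WT replicate 3. Among the fits without a library, Mvd, Nsdhl, Hsd17b7, Srebf1, Fasn and Elovl6 also changed sign in at least 1. The fitted value of Abca1, which rests on 0 to 21 counts a library and is no bound, ran from -0.0585 to 4.44, negative without WT replicate 1 (-0.000423) or 2. The cause was not tested.

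Whether the replicate numbers pair the libraries is not stated. Deviations of same-numbered libraries correlated at 0.207, -0.00356 and -0.154. Those of differently numbered libraries ran from -0.247 to 0.238, so these values cannot decide it. With the replicate block 0 genes of the set were called higher and 0 lower, with Idi1 at -0.747 (edgeR adjusted p = 0.114), and 34 genes in all were called higher and 31 lower, against 152 and 154 without it. Combined with the GC and length offsets it gave 0 and 0 as well, with 58 and 82 in all. Over all genes the other settings that moved a count by over 1.5 times were DESeq2 (698 higher, 665 lower), limma-voom (770, 819), the offsets (216, 265), no filter (203, 243), an adjusted p under 0.1 (405, 413), the 2-fold threshold (103, 86) and each left-out library: 258 and 368 without HDAC1-cKO replicate 2, and 15 to 26 higher and 10 to 23 lower without any other. Depth limits Abca1, Scd1 and Fads2 most.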
